A study of Mus musculus with 4 samples.

Results

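The genes described here are Dio1, which encodes the type 1 iodothyronine deiodinase, and 5 genes that act around it: the thyroid hormone receptor genes Thra and Thrb, the plasma carrier genes Ttr (transthyretin) and Serpina7 (thyroxine-binding globulin), and Slc16a10, which encodes the membrane transporter MCT10. They are 6 of the 25239 genes counted. Dio1 was chosen by its lower counts in these same extract libraries, that is, it was selected on the counts of the comparison made here. Its difference between the groups is therefore given as a description with no test. The other 5 were listed for their function.

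Liver RNA was sequenced from C57BL/6 mice of 6 to 8 weeks. The control mice received saline and the extract mice received Gynura segetum extract through the stomach at 30 g/kg per day, from a concentrate of 2 g/mL, and both groups were treated for 3 weeks. Gynura segetum is a plant that holds pyrrolizidine alkaloids, which liver enzymes turn into reactive products that injure the sinusoids, and the series compares liver injured in this way with control liver. There were 2 control and 2 extract libraries, and the labels do not say whether each came from its own mouse, so p-values here reflect only how these samples scatter, which may be technical scatter.

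The thyroid secretes mainly the prohormone thyroxine, which travels in blood on thyroxine-binding globulin, transthyretin and albumin and enters cells through transporters such as MCT10. Deiodinases are selenocysteine enzymes that remove iodine from it: the type 1 enzyme of liver and kidney and the type 2 enzyme can form the active hormone T3, and the type 3 enzyme inactivates both hormones. T3 binds the nuclear receptors, of which the beta form is the main one in hepatocytes, and Dio1 is itself raised by T3.

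Counts assigned to genes came to between 32215268 and 49711750 per library, and levels are given as counts per 1000000 (CPM) on the TMM scaling of edgeR, where 1 read is worth between 0.0208 and 0.0337 CPM. The liver label was borne out by its defining markers, since Alb lay between 69267 and 109141 CPM in the 4 libraries, and 6 markers of thyroid follicular cells together reached at most 0.0696 CPM. Xist was present in all 4 libraries at 754.1 to 1073 CPM and 4 Y-linked genes were at 0 in all of them. Markers of some other liver cells differed between the groups: 8 of 9 Kupffer cell markers were past the threshold and lower after the extract, with a summed level of 585.2 and 464.5 CPM in control and 40.6 and 40.5 CPM in extract libraries and none at 0. Of 8 sinusoidal endothelial markers 6 were lower, with a summed level of 331.8 to 344.9 CPM in control and 191.3 to 195.1 CPM in extract libraries, and of 7 vascular endothelial markers 5 were higher and 1 lower. Other lists had fewer calls: 2 of 9 stellate cell and fibroblast markers and 1 of 5 tested cholangiocyte markers were lower. Of 8 monocyte and recruited macrophage markers 1 was higher and 2 lower. None of 8 lymphocyte markers or 3 tested neutrophil markers passed. The lymphocyte markers had a median log2 fold change of -2.58, and 4 had an unadjusted edgeR p under 0.05, against 23.5% of all genes. Their summed level was 25.1 and 5.32 CPM in control and 2.76 and 3.11 CPM in extract libraries. In whole liver, fewer cells of a type and less RNA per cell cannot be told apart. Over all genes tested, 4.91% were higher and 3.63% lower at an adjusted edgeR p under 0.05. The clock gene list had 10 genes higher and 5 lower of 19, and the sources used here do not give collection times. The part of these differences in the results below was not tested.

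The upstream sequence of Dio1 is shown because its transcript differed most among the 6 genes, and that of Serpina7 as a comparison from a gene whose transcript did not pass the test. Both are the 250 bases before the RefSeq transcription start on GRCm38.p6, the assembly also called mm10, written 5′ to 3′ on the gene's own strand, which is the minus strand for both. The Dio1 window is chr4:107307169-107307418 and the Serpina7 window is chrX:139085237-139085486. Capitals mark exact matches on either strand to CAAAG (the core of sites for the hepatocyte nuclear factor HNF4A), CCACCC (a box bound by Kruppel-like factors) or GTTAAT (recognised by HNF1 factors). These motifs were chosen with the sequences in view.
Dio1: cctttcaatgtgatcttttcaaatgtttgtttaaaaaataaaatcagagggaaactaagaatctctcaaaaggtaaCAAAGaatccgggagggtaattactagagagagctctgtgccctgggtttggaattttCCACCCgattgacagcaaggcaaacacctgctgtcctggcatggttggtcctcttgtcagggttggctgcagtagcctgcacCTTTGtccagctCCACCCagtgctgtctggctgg
Serpina7: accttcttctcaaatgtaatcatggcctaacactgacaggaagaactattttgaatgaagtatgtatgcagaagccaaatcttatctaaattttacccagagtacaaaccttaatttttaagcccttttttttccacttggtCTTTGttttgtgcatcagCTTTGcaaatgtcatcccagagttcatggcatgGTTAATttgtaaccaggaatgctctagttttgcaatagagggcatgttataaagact
The Dio1 window held 2 matches to CAAAG, 2 to CCACCC, 0 to GTTAAT and 0 to AGGTCA, a short sequence bound by thyroid hormone receptors and other nuclear receptors. Inexact matches were not searched, so the 0 does not show that the window lacks a receptor site. The Serpina7 window held 2 to CAAAG, 0 to CCACCC, 1 to GTTAAT and 0 to AGGTCA. Among 32851 windows of the same length in the RefSeq table, 48.6% held CAAAG, 28.1% CCACCC, 6.43% GTTAAT and 14.0% AGGTCA. The motifs do not overlap one another in these windows, and no factor's binding was measured here. Windows were searched for 4 of the 6 genes, Dio1, Thrb, Serpina7 and Slc16a10, and none was searched for Thra or Ttr.

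Dio1 lies on chromosome 4 (107291465 to 107307169, mm10, GENCODE vM21). It was read 3384 and 5988 times in the control libraries and 415 and 445 times in the extract libraries, or at 70.5 and 201.6 CPM in control and 9.62 and 9.34 CPM in extract libraries. The extract libraries lay close together, the control libraries lay 2.86-fold apart, and the lower control library was still 7.33-fold above the higher extract library. The means were 136.0 ± 92.6 and 9.48 ± 0.199 CPM (SD, n = 2 libraries each), and the fitted log2 fold change was -3.84 with a standard error (SE) of 0.59, which is 14.3-fold lower. Without control replicate 2, the library with the most Dio1, the log2 fold change was -2.89, and without control replicate 1 it was -4.41. Among 9685 tested genes with a mean of at least 5 CPM, 21 had a more negative log2 fold change.

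**Figure D1:**
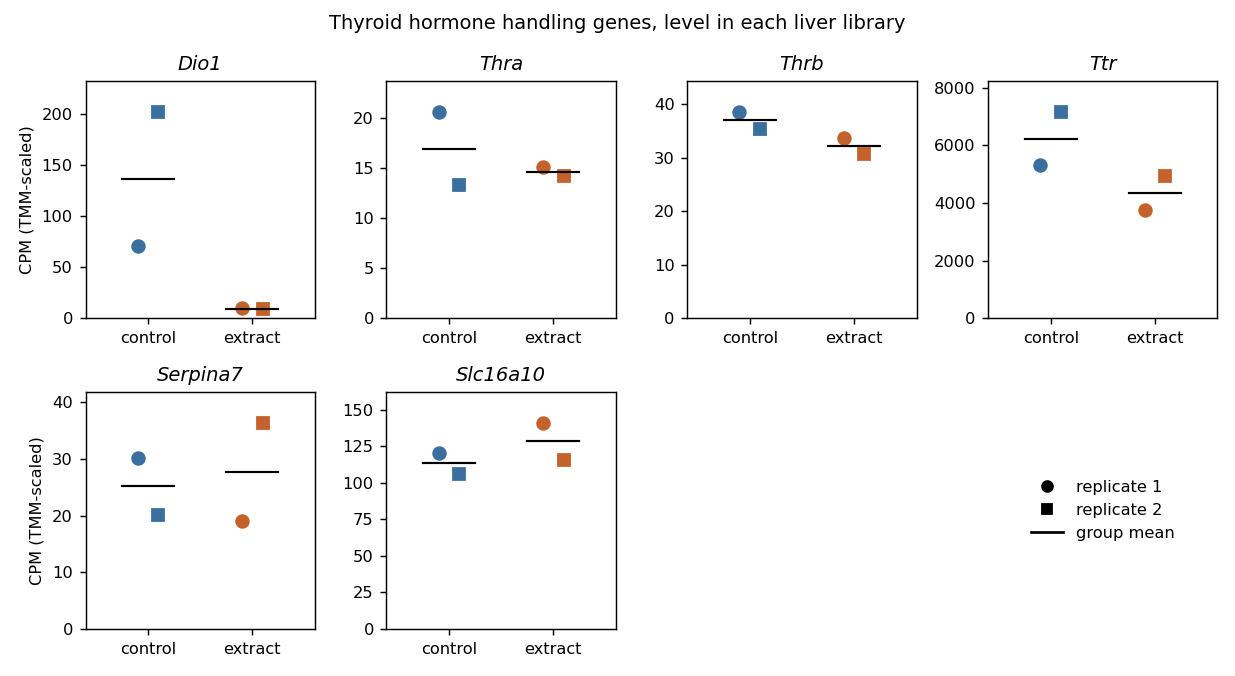
Level of the 6 genes in each library, in CPM on a linear axis from 0 that differs between panels; circles are replicate 1, squares are replicate 2 and bars are group means. Both Dio1 points of the extract group lie under 10 CPM while the control points lie at 70.5 and 201.6 CPM, and the points of Thra, Serpina7 and Slc16a10 overlap between the groups.

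The other deiodinases were near or below detection. Dio2, which encodes the type 2 enzyme, had 0 counts in all 4 libraries, which allows up to 0.0625 and 0.101 CPM in the control and 0.0696 and 0.063 CPM in the extract libraries (3 counts, counting error only). Dio3, the inactivating enzyme, had 3 and 4 counts in control and 19 and 6 in extract libraries, too few to be tested. Its antisense neighbour Dio3os, singled out after its values were seen, had 20 and 21 counts in control and 92 and 110 in extract libraries and did not pass the threshold (a log2 fold change of 2.00 with SE 0.50, and edgeR adjusted p = 0.0578).

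None of the other 5 genes passed an adjusted p of 0.05 in edgeR's quasi-likelihood test over 13963 genes, and 0 of them had an unadjusted p under 0.05; across all genes 8.54% passed, 4.91% higher and 3.63% lower, and 23.5% had an unadjusted p under 0.05. DESeq2 and limma-voom also called 0 of the 5. Thra (chromosome 11, 98740638 to 98769006) stood at 20.6 and 13.3 CPM in control and 15.1 and 14.2 CPM in extract libraries, and the extract values lay between the control values. Its log2 fold change was -0.21 (SE 0.23, 95% interval -0.76 to 0.34, edgeR adjusted p = 0.65). The sign rested on the control libraries: it was 0.14 without control replicate 1 (adjusted p = 0.684) and -0.49 without control replicate 2, where it passed the threshold (adjusted p = 0.0303). Thra counts do not separate its hormone-binding product from the splice form that does not bind T3. The 3′ end of Thra overlaps Nr1d1, the gene of the clock repressor REV-ERB alpha, on the opposite strand over 263 of 4614 exon bases (5.7%), and the strand setting of the counting is unknown here. Nr1d1 went from 7.21 and 16.5 CPM in control to 47.6 and 63.9 CPM in extract libraries (a log2 fold change of 2.24 with SE 0.44, and edgeR adjusted p = 0.0497), a call that was lost in 5 of 13 alternatives, among them leaving out either extract library. Whether Nr1d1 reads entered the Thra count was not tested.

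Thrb (chromosome 14, 17660261 to 18038090), the main receptor gene of hepatocytes, stood at 38.6 and 35.5 CPM in control and 33.7 and 30.8 CPM in extract libraries. Both extract libraries lay below both control libraries, as was the case for 26.7% of all genes tested. The log2 fold change was -0.20 (SE 0.14, 95% interval -0.53 to 0.13, edgeR adjusted p = 0.45). Per kilobase of merged exons, Thrb reads exceeded Thra reads 1.17-fold and 1.67-fold in control and 1.39-fold and 1.35-fold in extract libraries, and this ratio did not differ between the groups beyond its spread (exact permutation test, 2-sided p = 1, where 2 against 2 libraries cannot give less than 0.333). The order of the receptor genes depended on the length used, since with the longest transcript the ratio was 0.741 and 1.06 in control and 0.884 and 0.859 in extract libraries.

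Ttr, the most abundant of the 6 transcripts, lies on chromosome 18 (20665280 to 20674321) and stood at 5305 and 7157 CPM in control and 3747 and 4932 CPM in extract libraries. Both extract values lay below both control values, but the gap between the nearest pair was smaller than that within either group. The log2 fold change was -0.52 (SE 0.22, 95% interval -1.05 to 0.01, edgeR adjusted p = 0.217), and it passed the threshold only without control replicate 1 (-0.72, adjusted p = 0.00464). Beside it, Alb, whose product also carries thyroxine, had a log2 fold change of -0.58 (SE 0.17, adjusted p = 0.0982). Of 14 hepatocyte markers 3 were lower and 0 higher, where 3.63% of all genes tested were lower and 4.91% higher. These markers had a median of -0.51, a summed level of 183142 and 187829 CPM in control and 123184 and 128391 CPM in extract libraries, and none at 0.

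Serpina7 (chromosome X, 139079257 to 139085236), whose product binds thyroxine most tightly among the plasma carriers, stood at 30.2 and 20.1 CPM in control and 19.0 and 36.4 CPM in extract libraries. The extract libraries lay on both sides of the control libraries. The log2 fold change was 0.14 (SE 0.36, 95% interval -0.78 to 1.05, edgeR adjusted p = 0.874), and it took the opposite sign without control replicate 2 (-0.12) and without extract replicate 2 (-0.42). Its interval is the widest among the 5 genes and holds a 2-fold rise.

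Slc16a10 (MCT10, also a carrier of aromatic amino acids; chromosome 10, 40033532 to 40142258) stood at 120.6 and 106.0 CPM in control and 141.2 and 115.5 CPM in extract libraries, which overlap (a log2 fold change of 0.18 with SE 0.16, 95% interval -0.20 to 0.56, and edgeR adjusted p = 0.567).

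Per kilobase of merged exons, the control libraries ranked Ttr first (4473 and 6034 CPM per kb), then Dio1 (35.8 and 102.3), Slc16a10 (16.4 and 14.4), Serpina7 (12.3 and 8.21), Thrb (5.21 and 4.8) and Thra (4.46 and 2.87). In the extract libraries Dio1 stood at 4.88 and 4.74 CPM per kb, under Slc16a10 (19.2 and 15.7) and Serpina7 (7.76 and 14.8) and next to Thrb (4.55 and 4.16). With the longest transcripts Dio1 again lay just above Thrb there, at 5.69 and 5.53 against 5.43 and 4.97 CPM per kb. Its place against Thra depended on the length used. In the extract libraries Thra lay below Dio1 with merged exons (3.27 and 3.07) and above it with the longest transcripts (6.15 and 5.79). In the control libraries neighbours in this order did not overlap, but with the longest transcripts Thra (8.39 and 5.41) and Thrb (6.22 and 5.73) did.

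**Figure D2:**
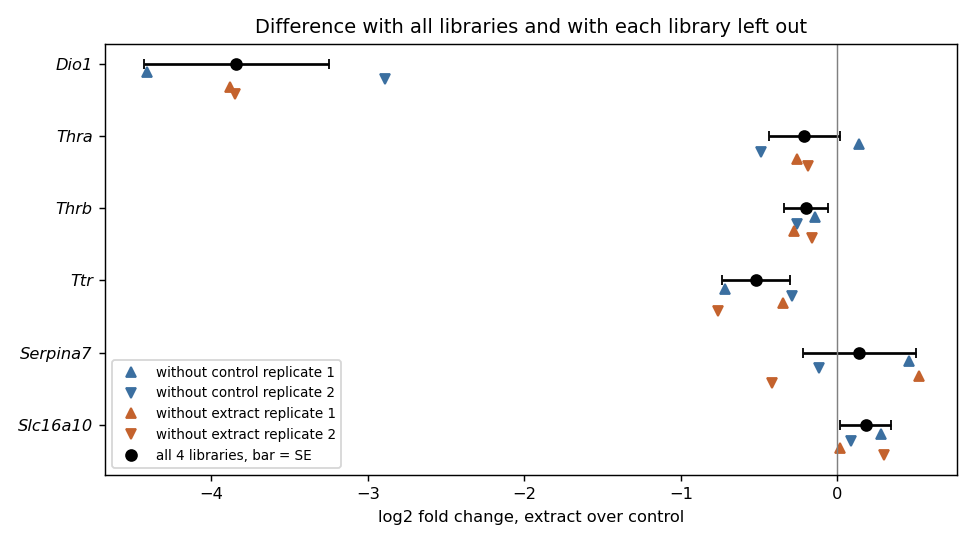
Log2 fold change, extract over control, of the 6 genes; black points are the fit to all 4 libraries with SE bars, and triangles are fits with the named library left out. Dio1 stays between -4.41 and -2.89, while Thra and Serpina7 cross 0.

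Genes around the 6 were read from 7 lists with 92 distinct genes, of which 89 could be tested: 10 were higher, 3 lower and 76 did not pass, with a median log2 fold change of -0.09. The 10 include Gpx2, which had 0 counts in the control libraries and so could be called only as higher. Over all 13963 genes tested, 686 (4.91%) were higher and 507 (3.63%) lower. An unadjusted edgeR p under 0.05 was seen for 36 of the 89 and for 23.5% of all genes. Among the other carriers and membrane transporters and deiodinases, 11 of 14 were tested, 0 were higher and 1 lower, with a median of -0.12. Of these 11, 3 had an unadjusted edgeR p under 0.05. With control replicate 1 left out, 1 was higher (Slco1a4) and 3 were lower (Slc7a8, Slc10a1 and Slco1a1), of which all but Slc7a8 are named after their values were seen, and without either extract library in turn 0 were called. Slc7a8, which encodes the amino acid transporter LAT2 that also carries iodothyronines, fell from 11.0 and 6.80 CPM to 2.48 and 2.06 CPM (a log2 fold change of -1.97 with SE 0.32, and edgeR adjusted p = 0.0148). Slco1b2, an organic anion transporter of hepatocytes, had 717.5 and 1025 CPM in control and 802.3 and 802.2 CPM in extract libraries, and its groups overlap (a log2 fold change of -0.12).

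Among 9 enzymes that sulfate or glucuronidate iodothyronines, and so mark them for excretion or for further deiodination, 1 was higher, 0 lower and 8 did not pass, with a median of 0.53. In the edgeR fit 6 of the 9 had an unadjusted p under 0.05, where 23.5% of all genes had one. DESeq2's Wald test called 3 higher (Ugt1a6a, Ugt1a9 and Sult1d1) and 1 lower (Sult1c2), of which Ugt1a9, Sult1d1 and Sult1c2 are named after their values were seen, and without either extract library in turn 0 were called. Ugt1a6a rose from 27.8 and 25.2 CPM to 52.6 and 48.5 CPM (a log2 fold change of 0.93, edgeR adjusted p = 0.0113), while Sult1a1 (-0.22) and Ugt1a1 (-0.29) did not pass. The Ugt1a genes share their last exons, so their counts cover only what the counting could assign to 1 of them.

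Of 14 receptor partners and coregulators, 0 passed in either direction in the edgeR fit, with a median of -0.18 and 3 at an unadjusted p under 0.05, a share near the 23.5% over all genes. DESeq2's Wald test called 1 of them lower, Tbl1xr1, and 0 higher, and limma-voom called 0. The edgeR fits without a low-count filter and with a replicate block also called 1 of the 14 lower each. Tbl1xr1, which encodes a subunit of the corepressor complex and is named after its values were seen, had 31.7 and 40.8 CPM in control and 18.8 and 25.3 CPM in extract libraries (a log2 fold change of -0.71 and edgeR adjusted p = 0.0873). Ncor1, which encodes a corepressor that unliganded receptors recruit, had 123.0 and 107.6 CPM in control and 97.1 and 94.0 CPM in extract libraries (-0.27, adjusted p = 0.301), and Rxra, the retinoid X receptor with which thyroid hormone receptors pair, had a log2 fold change of -0.31 (adjusted p = 0.253).

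Genes known to be raised by thyroid hormone in liver went in both directions. Of 18 tested, 5 were higher, 2 lower and 11 did not pass, with a median of 0.25. An unadjusted edgeR p under 0.05 was seen for 12 of the 18, against 23.5% of all genes. The list had 8 higher and 8 lower when control replicate 1 was left out, and 8 higher and 4 lower when control replicate 2 was. Thrsp (Spot 14, a lipogenic regulator) rose from 64.7 and 121.2 CPM to 546.7 and 858.8 CPM (a log2 fold change of 2.92 with SE 0.39, and edgeR adjusted p = 0.0151). The corepressor gene Hr (hairless) rose from 0.625 and 0.572 CPM to 8.07 and 5.06 CPM (3.44, SE 0.39, adjusted p = 0.00441). The fatty acid synthesis genes Fasn (1.75), Acaca (1.49) and Acly (0.94) also rose. Klf9, a Kruppel-like factor induced by both T3 and glucocorticoids, fell from 151.2 and 173.1 CPM to 57.3 and 62.7 CPM (-1.43, SE 0.15, adjusted p = 0.00301), and the apolipoprotein gene Apoa1 fell by 0.87 on the log2 scale (adjusted p = 0.0294). The gluconeogenic gene Pck1 (-0.35) and the mitochondrial fatty acid import gene Cpt1a (-0.60, adjusted p = 0.0706) did not pass. Many of these genes also answer to feeding and to the clock, and the sources used here give neither time of day nor feeding.

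**Figure D3:**
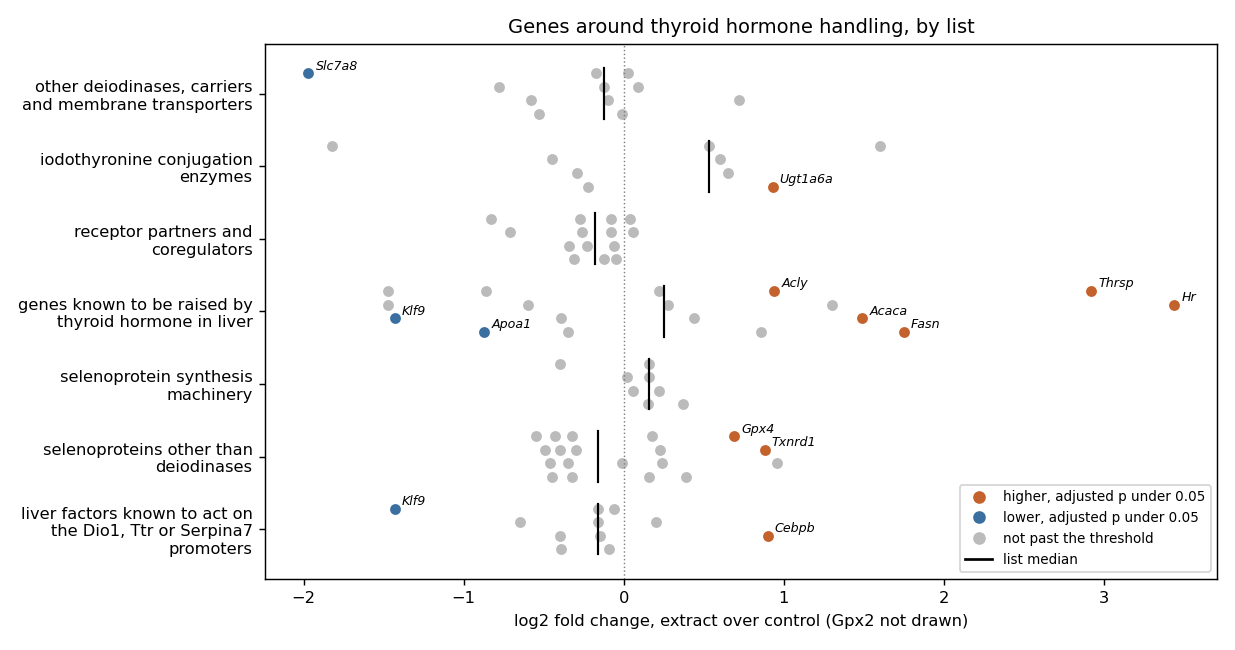
Log2 fold change, extract over control, of each tested gene by list, with named points past an adjusted p of 0.05 and a black bar at the list median; vertical position within a list has no meaning and Gpx2, absent from control libraries, is not drawn. Genes raised by thyroid hormone spread from Klf9 at -1.43 among the called genes to Hr at 3.44, and 0 of 8 genes of selenoprotein synthesis are called.

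Because Dio1 is a selenoprotein, the genes that insert selenocysteine and the other selenoproteins were read as well. Of 8 genes of the synthesis machinery, 0 passed in either direction in the edgeR fit, with a median of 0.16 and 1 at an unadjusted p under 0.05, where 23.5% of all genes had one. DESeq2 and limma-voom also called 0 of the 8, and without control replicate 1 only Scly was called, as lower. Sephs2, the selenophosphate synthetase that is itself a selenoprotein, had 851.5 and 848.2 CPM in control and 936.3 and 966.2 CPM in extract libraries (0.16, edgeR adjusted p = 0.559). Scly, the selenocysteine lyase that recycles selenium, had a log2 fold change of -0.40 (adjusted p = 0.174). Of 20 other selenoprotein genes, 8 had an unadjusted p under 0.05 in the edgeR fit. By adjusted p 3 were higher, 0 lower and 17 did not pass, with a median of -0.16. The balance turned without control replicate 1, with 4 higher and 6 lower, and DESeq2's Wald test called 4 higher and 2 lower (Msrb1 and Selenos, named after their values were seen). Without either extract library in turn 1 was higher and 0 were lower. Gpx2, a glutathione peroxidase best known from the gut, had 0 counts in control and 436 in extract libraries, at least 59.2-fold higher with each control library set at 3 counts. It is among the 3 higher calls, but it passed the low-count filter only through the extract libraries and could be called only as higher. Txnrd1, the cytosolic thioredoxin reductase, rose from 135.2 and 131.1 CPM to 251.4 and 239.4 CPM (0.88, adjusted p = 0.0118), and Gpx4, the lipid peroxide reductase, rose from 243.5 and 226.7 CPM to 372.1 and 388.4 CPM (0.69, adjusted p = 0.028). Selenop, the selenium carrier of plasma (-0.32), and Gpx1 (-0.30) did not pass.

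Of 11 liver factors known to act on the promoters of Dio1, Ttr or Serpina7, 1 was higher, 1 lower and 9 did not pass, with a median of -0.16. Among them 4 had an unadjusted edgeR p under 0.05, against 23.5% of all genes. Hnf4a, the gene of the hepatocyte nuclear factor HNF4A, had 864.7 and 790.9 CPM in control and 602.0 and 652.6 CPM in extract libraries (a log2 fold change of -0.40 with SE 0.15, and edgeR adjusted p = 0.158). Klf9, a Kruppel-like factor gene, is the gene that fell, and whether its product acted on any of these promoters was not tested. Cebpb rose from 67.3 and 76.1 CPM to 134.6 and 133.2 CPM (0.90, adjusted p = 0.012), while the related factor gene Cebpa had a log2 fold change of -0.06 (adjusted p = 0.881). Of the 13 called genes in the 7 lists, 7 lost their call when either extract library was dropped (Slc7a8, Ugt1a6a, Acly, Apoa1, Gpx4, Txnrd1 and Cebpb), and 6 kept their call with each library left out in turn (Thrsp, Hr, Fasn, Acaca, Klf9 and Gpx2), though Thrsp lost its call without the low-count filter (a log2 fold change of 2.93, edgeR adjusted p = 0.0547).

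The genes whose profile lay nearest to that of Dio1 were taken by the distance between log2(CPM + 1) values centred on the control mean, over the 4 libraries and among 9415 protein-coding genes with a mean of at least 5 CPM. They were the Kupffer cell scavenger receptor Cd163 (distance 0.89), the lysyl oxidase Loxl4 (0.94), the stress-responsive gene Ndrg1 (0.96), the clock factor Npas2 (1.05) and the cytochrome P450 gene Cyp2b13 (1.14), where the median distance of all genes was 5.10. Ndrg1 also had more reads in control replicate 2, with 41.3 and 93.7 CPM in control and 8.32 and 7.07 CPM in extract libraries. Npas2 had 13.0 and 14.2 CPM in control libraries, which lay close together, and 0.51 and 0.546 CPM in extract libraries. Cyp2b13 has close copies that can share reads, so its counts are less certain. Over 4 libraries likeness is a weak description: 600 genes had a Pearson correlation of at least 0.95 with Dio1, and the 5 with the highest correlation shared 0 names with the 5 given here.

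**Figure D4:**
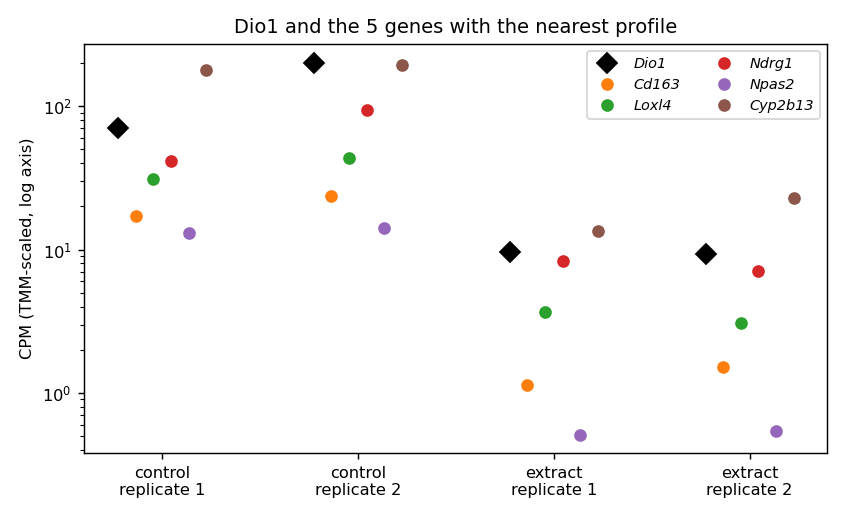
Level in each library, in CPM on a log axis, of Dio1 (black diamonds) and of the 5 genes nearest to it; points within a library are set side by side for legibility. All 6 genes lie lower in both extract libraries, and Dio1 and Ndrg1 differ most between the control libraries, by 2.86-fold and 2.27-fold.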

How the data were processed

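RNA from mouse liver was measured in 2 control and 2 extract libraries, grouped by sample title. The deposited files hold raw counts per gene symbol, made by the authors with no normalization. CASAVA 1.8, HISAT2 2.1.0, HTSeq and the mm10 build are named per the submitters' processing notes; annotation and strand setting: not given in the sources used here. Records naming no gene, 16.5% to 22.0% per library, stayed out of library sizes and tests.

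Counts were tested with edgeR 4.0.16 (R 4.3.3): filterByExpr, TMM, robust quasi-likelihood F test, 2-sided, adjusted after Benjamini and Hochberg over 13963 genes, threshold 0.05. The SE is the log2 fold change over the square root of F, and 95% intervals use the moderated degrees of freedom. The edgeR step was tested on simulated data. Alternatives were other scalings, DESeq2 1.42.0, limma-voom (limma 3.58.1), no robust step, other low-count filters, each library left out and a replicate block. Lengths and positions come from GENCODE vM21 (GRCm38), upstream sequences from RefSeq.

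The 6 genes and the lists were chosen with earlier results of these data known. Named genes were all 6, called list members, up to 2 uncalled members per list with the highest CPM, genes overlapping one of the 6, and the 5 nearest to Dio1; a gene that did not follow this rule is marked, apart from markers given beside a result. List genes that are not reported here were left out of the list counts, with their planned comparisons, after values were known.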

Additional observations from a re-analysis of the deposited data

How the results depend on the processing

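With 2 libraries per group the number of calls followed the libraries used. Leaving out 1 library gave 233 to 1826 genes higher and 134 to 1782 lower over all genes, against 686 and 507 with all 4, and 5 to 18 higher and 1 to 24 lower among the 92 listed genes, against 10 and 3; both lowest values came without an extract library. The group left with 1 library was taken to vary like the other. DESeq2's Wald test called 1027 genes higher and 909 lower over all genes, and 15 listed genes higher and 9 lower. The edgeR fit without a low-count filter called 11 listed genes higher and 6 lower. Dio1 ranged from -4.41 to -2.89 on the log2 scale with 1 library left out, Thra from -0.49 to 0.14, Ttr from -0.76 to -0.29 and Serpina7 from -0.42 to 0.52; the opposite signs were 0.14 for Thra, and -0.12 and -0.42 for Serpina7. Thrb (-0.28 to -0.03) and Slc16a10 (0.02 to 0.35) kept their sign and stayed short of the threshold in all 13 alternatives. Total-count scaling moved the median of all genes to 0.16 and the share of calls that were higher from 57.5% to 73.6%, and left the sign of all 6 genes as it was.

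The titles give both groups replicates 1 and 2, but nothing says that equal numbers share an animal or a day. With a replicate block Dio1 was at -3.66, and 8 listed genes were lower and 14 higher; the block changed no call among the other 5 genes. Same-numbered deviations correlated at 0.22 across genes.

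The gene length changed levels per kilobase and the order of Thra and Thrb. It cannot change the difference in their ratio between the groups (log2 difference -0.02), because each length is the same in all 4 libraries. Depth limits what can be said of Dio2, at 0 counts in all 4 libraries, and of Dio3, at 3 to 19 counts.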

Other observations

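The control libraries differed from each other in several genes on the lists, singled out here after their values were seen. Control replicate 2 had more G6pc (glucose-6-phosphatase; 205.4 and 528.5 CPM in control replicates 1 and 2, 2.57-fold apart), more Pdk4 (pyruvate dehydrogenase kinase; 15.5 and 55.7 CPM), more Fgf21 (0.625 and 2.83 CPM) and more of the organic anion transporter Slco1a1 (89.0 and 341.0 CPM), as it had more Dio1 (70.5 and 201.6 CPM). Others lay as far apart the other way, with more in control replicate 1: Slco1a4 at 192.5 and 91.3 CPM, Ppargc1a at 11.4 and 5.35 CPM and Sult1e1 at 0.563 and 0.101 CPM. Of the 89 tested list genes, 4 were at least 2-fold higher in control replicate 2 (4.49%) and 3 in control replicate 1 (3.37%), where over all genes tested the shares were 3.91% and 9.61%. Lymphocyte markers summed to 25.1 and 5.32 CPM and neutrophil markers to 8.19 and 0.303 CPM in control replicates 1 and 2, and their part in these gaps was not tested. In the extract libraries 3 of the genes higher in control replicate 2 lay close together, with G6pc at 142.9 and 122.7 CPM, Pdk4 at 19.9 and 19.3 CPM and Slco1a1 at 130.9 and 119.9 CPM. None of those 4 (G6pc, Pdk4, Fgf21 and Slco1a1) passed the edgeR threshold between the groups, with adjusted p of 0.166 for G6pc, 0.546 for Pdk4, 0.329 for Fgf21 and 0.599 for Slco1a1.

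Acute phase genes, of which Ttr is known as a negative member, gave 3 of 12 higher and 0 lower. Over all genes tested 4.91% were higher and 3.63% lower. An unadjusted edgeR p under 0.05 was seen for 5 of the 12, against 23.5% of all genes. The list had a median log2 fold change of 0.15 and a summed level of 6060 and 6282 CPM in control and 8276 and 7784 CPM in extract libraries. Serpina3n (1.83), Socs3 (1.53, the feedback inhibitor of gp130 signalling) and Orm2 (1.23) rose, while the serum amyloid genes Saa1 (-0.11) and Saa2 (-0.68) did not pass.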
